A study of Mus musculus with 6 samples.

Results

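The genes examined were those of the surface complex that carries the antigen receptor signal into a T cell: the CD3 chains Cd3d, Cd3e, Cd3g and Cd247, the coreceptors Cd4, Cd8a and Cd8b1, and the proximal signaling genes Lck, Zap70 and Lat. They were chosen by name, as identity genes of T cells, from the 29393 genes of the count table, and all 10 were found there and passed the filter on low counts. The mRNA of converted double negative T cells (cDNT), which carry the T cell receptor but neither CD4 nor CD8 on their surface, was measured by RNA sequencing in 3 libraries W/O IL-10 and 3 libraries W/ IL-10. IL-10 is a cytokine that restrains many immune responses. The labels describe all 6 libraries as double negative T cells from the spleen of adult C57BL/6 mice. By the study's methods, the cells were made from CD4+CD25- T cells of CD45.1 C57BL/6 mice, which were grown beside mature dendritic cells in IL-2 and sorted, and they were kept for 24 h with antibodies to CD3 and CD28 and IL-10 at 50 ng/ml before RNA was taken. The sources do not say whether the libraries of a group came from separate cultures or mice, so the p-values measure only the spread between these libraries, which may be technical. The labels describe the libraries W/O IL-10 as 'W/O IL-10 stimulated', which may mean unstimulated or only not given IL-10. The sources do not say separately whether these cells also received the antibodies, which engage the very complex these genes encode. An effect of IL-10 and one of the antibodies therefore cannot be told apart from the labels.

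The T cell receptor binds antigen but has no signaling tail of its own. The CD3 gamma, delta, epsilon and zeta chains (Cd3g, Cd3d, Cd3e and Cd247) hold it at the surface and carry the motifs that the kinase LCK phosphorylates. CD4 and CD8 bind the presenting MHC molecule and bring LCK to the receptor, ZAP-70 docks on the phosphorylated chains, and ZAP-70 then phosphorylates the scaffold LAT, from which the signal branches. The study describes double negative T cells of mice as positive for CD3 and the alpha beta receptor. It describes them as negative for both coreceptors and for NK1.1.

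Total counts per library lay between 21619420 and 23967088, and the floor of 3 counts corresponded to 0.123 to 0.146 CPM (counts scaled to the size of the library), a limit that covers counting error only. Of the 14916 genes tested with edgeR's quasi-likelihood test, 217 (1.45%) were called, that is, differed by 1.5 times or more at an adjusted p-value under 0.05, of which 116 (0.778%) were higher and 101 (0.677%) lower W/ IL-10. At the same adjusted p-value and any fold change, 327 genes (2.19%) passed, 181 (1.21%) higher and 146 (0.979%) lower, and a gene is said below to have risen or fallen only where it did so. By base composition, W/O IL-10 replicate 1 stood furthest apart from the rest. In that library, the 693 genes with at most 40% GC lay at a median of 0.64 below the mean of the 6 libraries on the log2 scale. The same genes lay 0.31 above it in W/ IL-10 replicate 1 and 0.07 to 0.13 above it in the other libraries. For the 10 genes and the lists of pathway genes, calls that change without W/O IL-10 replicate 1 are given both ways.

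The labelled cell type was read against marker genes. All 12 T cell markers were measured, with summed levels of 3473 to 3863 CPM W/O IL-10 and 4382 to 4467 CPM W/ IL-10. Cd3d, Cd3e, Cd3g and Cd247 are among them, so this sum is not independent of the genes examined. On average 11 markers were higher W/ IL-10 and 1, Cd5, was lower. Cd5 was the only T cell marker to pass (log2 fold change -0.47, adjusted p = 0.0467) and is taken up below. The most abundant marker was Thy1, a surface glycoprotein of T cells, at 1337 ± 42.6 CPM (SD, n = 3) W/O IL-10 and 1660 ± 65.6 CPM W/ IL-10 (adjusted p = 0.102). Genes of gamma delta T cells were also read, summing to 318 to 364 CPM W/O IL-10 and 367 to 398 CPM W/ IL-10. Of these, Trdc, the delta chain constant region, rose from 61.8 ± 1.75 to 83.4 ± 5.79 CPM (log2 fold change 0.43, SE 0.08, adjusted p = 0.0282), Sox13, a factor of gamma delta T cells, fell from 12.4 ± 2.43 to 6.12 ± 0.265 CPM (log2 fold change -1.02, SE 0.16, adjusted p = 0.0213), and Tcrg-C2, the most abundant, was at 146 ± 15.9 and 155 ± 8.75 CPM. The 7 natural killer cell markers summed to 566 to 605 CPM W/O IL-10 and 417 to 443 CPM W/ IL-10, most of it Eomes, a T-box factor that activated T cells also express, which fell from 517 ± 20.5 to 364 ± 16.7 CPM (adjusted p = 0.0176). Ncr1, a natural killer cell receptor, fell from 6.53 ± 1.35 to 2.95 ± 0.724 CPM (adjusted p = 0.046), while Klrb1c was at 32.9 ± 5.83 and 27.4 ± 3.61 CPM. These were the 3 of the 7 markers that were lower W/ IL-10, and the median log2 fold change of the list was 0.17. The 4 higher were Klre1 (0.42), Klra8 (0.38), Klra4 (0.25) and Klri2 (0.17), none of them passing the test. The adjusted p-values are from edgeR. Leaving out 1 library raised the largest adjusted p to between 0.123 and 0.22 for Trdc, Sox13, Eomes and Ncr1, and for Blk and Ccr7, described next, to 0.176 and 0.195.

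Markers of cells outside the T and natural killer lineages ranged from near 0 to levels like those of the T cell genes. All 8 B cell markers were lower on average W/ IL-10, with sums of 149 to 246 CPM W/O IL-10 and 99.8 to 164 CPM W/ IL-10, but only Blk, a kinase of B cells that some T cells also express, passed the test, falling from 63.6 ± 13.1 to 34.5 ± 6.00 CPM (adjusted p = 0.0373). Cd79b, a chain of the B cell receptor, was at 26.0 ± 9.70 and 18.4 ± 7.06 CPM. Among 12 dendritic cell markers, of which 11 were in the table and 8 could be tested, Itgax rose from 20.4 ± 2.06 to 43.2 ± 5.36 CPM (edgeR adjusted p = 0.00383) and Ccr7 fell from 100.3 ± 14.6 to 64.8 ± 6.50 CPM (adjusted p = 0.0364), both genes that T cells express too. The defining dendritic cell markers Clec9a and Siglech had at most 1 count in any library and Flt3 at most 7, whereas Zbtb46 (96 to 170 counts), Xcr1 (85 to 147), Batf3 (22 to 49), Cd83 (292 to 941) and Fscn1 (21 to 185) were measured in every library. Of the 8 tested markers 2 were higher and 6 lower W/ IL-10, with a median log2 fold change of -0.45. Fscn1 (-1.71), Cd83 (-0.93), Zbtb46 (-0.44) and Batf3 (-0.41) were lower and Xcr1 (0.6) higher, none of them passing the test. The whole list summed to 150 to 183 CPM W/O IL-10 and 129 to 151 CPM W/ IL-10. Of the 10 macrophage and monocyte markers 6 could be tested and none of these passed, Csf1r had at most 8 counts in any library, and the sums of 1096 to 1310 CPM and 1583 to 1824 CPM were mostly Ccr2 (714 ± 183 and 1011 ± 82.8 CPM) and Ly6c2 (429 ± 130 and 692 ± 57.8 CPM), which activated T cells also express. Of the 6 tested, 3 were higher and 3 lower W/ IL-10, with a median log2 fold change of -0.12. Besides Ccr2 and Ly6c2, every library held counts of Cd68 (493 to 670, log2 fold change 0.32), Cd14 (49 to 111, -0.56), Adgre1 (13 to 66, -0.6) and Lyz2 (17 to 88, -0.62). Of the 7 granulocyte and mast cell markers 5 could be tested and none of these passed either, the most abundant being Cpa3, a mast cell protease, at 685 ± 117 and 516 ± 89.4 CPM, and Mcpt8, a basophil protease, at 100.4 ± 50.2 and 75.4 ± 15.9 CPM, with sums of 646 to 891 CPM and 483 to 682 CPM. The 5 erythroid markers summed to at most 4.82 CPM, led by Hbb-bs (1.13 ± 0.948 and 0.106 ± 0.0658 CPM) and Hbb-bt (0.55 ± 0.587 and 0.236 ± 0.218 CPM). In bulk libraries such as these, fewer cells of a type and less RNA per cell cannot be told apart, and the part these cells have in the values below was not tested.

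Cd8b1 was the 1 gene of the 10 that was called, against 1.45% of all tested genes, and it was higher W/ IL-10 (0.778% of tested genes), while none was called lower (0.677%). Cd8a also rose, to just under the fold change threshold, so that 2 of 10 genes passed at any fold change against 2.19% of tested genes, both of them higher (1.21% of tested genes) and none lower (0.979%). Cd3g and Lck were higher in every library W/ IL-10 than in any library W/O IL-10 without passing the adjusted test, as was Cd247, and Cd4 mRNA was low in both groups, at 8 to 38 counts a library. The median log2 fold change of the 10 genes was 0.25, against 0.01 over all tested genes. Of the 10, 8 were higher and 2 lower W/ IL-10. The groups did not overlap for 6 of them, 5 higher and 1 lower, against 22.6% of all tested genes in either direction and 11.3% in the higher direction. Their summed level was 1753 to 2111 CPM W/O IL-10 and 2276 to 2368 CPM W/ IL-10.

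**Figure D1:**
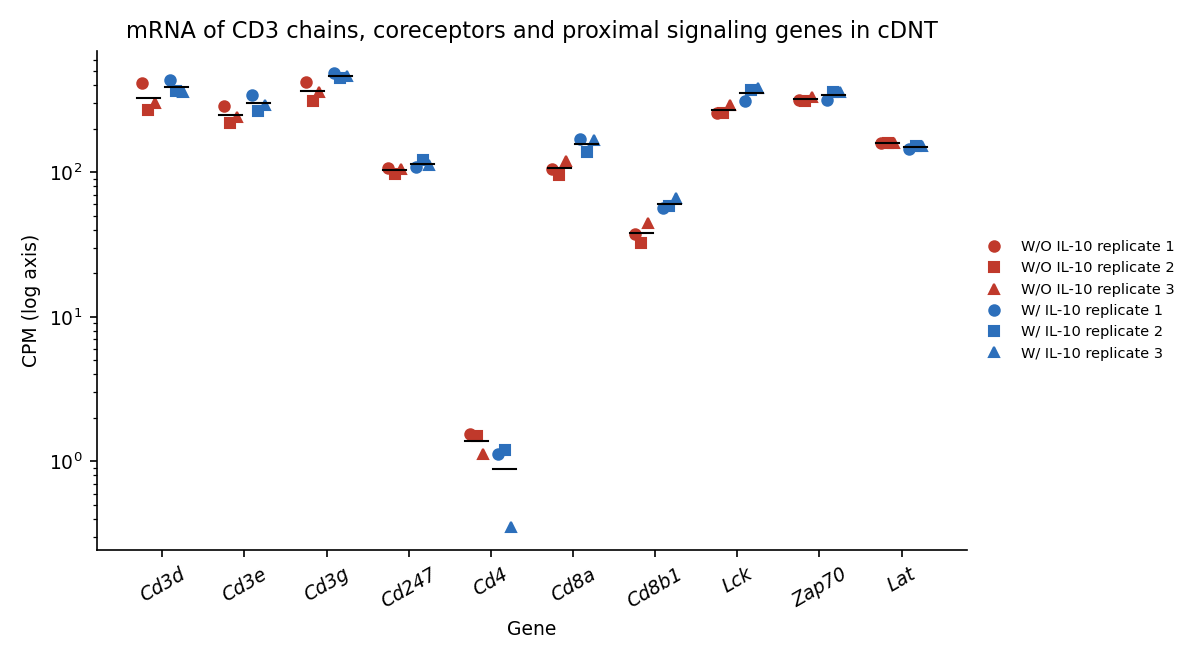
Level of each gene in CPM (log axis) in the 3 libraries W/O IL-10 (red) and the 3 libraries W/ IL-10 (blue), with marker shape for the replicate number and a black line for the group mean. Cd8a and Cd8b1 separate fully between the groups, and Cd4 lies between 0.351 and 1.55 CPM while the other genes lie at or above 32.6 CPM.

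The genes of the gamma, delta and epsilon chains lie side by side on chromosome 9 (GRCm38), where Cd3g (chr9:44969572-44980431, minus strand) and Cd3d (chr9:44981786-44987339, plus strand) start head to head 1354 bases apart, and Cd3e (chr9:44998740-45009627, minus strand) follows 11400 bases beyond Cd3d. Their promoters are printed because these neighbours varied alike between libraries, as described next. RefSeq's promoter windows (GRCm38.p6, 250 bases before to 50 after each start) held 8 of the 10 genes, in 11 windows. Capitals mark matches, on either strand, to letters of 4 factor families: RUNX (spelled TGTGGT, in 16.8% of 32851 promoters), GATA factors (spelled AGATAA, in 11.2%), E-box proteins (spelled CANNTG, in 72.3%) and STAT (spelled TTCNNNGAA, in 8.3%). A match is a description of the letters and not a bound site. The windows are chr9:44980382-44980681 (minus strand) for Cd3g, chr9:44981536-44981835 (plus strand) for Cd3d and chr9:45009562-45009861 (minus strand) for Cd3e, each written 5′ to 3′.
Cd3g: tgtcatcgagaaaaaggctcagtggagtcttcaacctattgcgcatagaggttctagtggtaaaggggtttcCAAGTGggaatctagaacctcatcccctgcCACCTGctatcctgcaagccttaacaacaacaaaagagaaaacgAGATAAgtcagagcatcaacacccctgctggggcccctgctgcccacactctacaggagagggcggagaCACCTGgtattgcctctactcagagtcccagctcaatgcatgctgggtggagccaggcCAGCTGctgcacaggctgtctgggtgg
Cd3d: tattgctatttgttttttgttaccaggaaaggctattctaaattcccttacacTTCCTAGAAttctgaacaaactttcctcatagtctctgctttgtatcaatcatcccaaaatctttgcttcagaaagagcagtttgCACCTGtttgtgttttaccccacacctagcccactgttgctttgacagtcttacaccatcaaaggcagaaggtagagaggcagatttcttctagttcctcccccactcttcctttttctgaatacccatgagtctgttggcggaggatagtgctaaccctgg
Cd3e: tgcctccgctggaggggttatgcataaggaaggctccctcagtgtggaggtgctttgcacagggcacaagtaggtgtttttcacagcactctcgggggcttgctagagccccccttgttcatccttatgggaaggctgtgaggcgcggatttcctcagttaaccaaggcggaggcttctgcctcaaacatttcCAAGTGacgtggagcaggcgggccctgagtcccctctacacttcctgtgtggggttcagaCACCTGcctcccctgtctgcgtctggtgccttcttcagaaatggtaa
Cd3g held 4 E-box matches and 1 GATA match, Cd3d 1 E-box and 1 STAT match, and Cd3e 2 E-box matches.

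Cd3d, the delta chain, had 413, 269 and 302 CPM in replicates 1 to 3 W/O IL-10 and 434, 365 and 361 CPM W/ IL-10. Replicate 1 W/O IL-10 lay among the W/ IL-10 libraries and the groups overlapped. The means were 328 ± 75.2 and 387 ± 40.9 CPM, a log2 fold change of 0.24 (SE 0.15, 95% interval -0.11 to 0.59, edgeR adjusted p = 0.532). Cd3e, the epsilon chain that anti-CD3 antibodies bind, had 289, 219 and 243 CPM W/O IL-10 and 345, 265 and 293 CPM W/ IL-10. Here too replicate 1 W/O IL-10 was higher than one library W/ IL-10. The means were 250.3 ± 35.8 and 301 ± 40.7 CPM, with a log2 fold change of 0.27 (SE 0.13, 95% interval -0.02 to 0.56, edgeR adjusted p = 0.387).

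Cd3g, the gamma chain, had 424, 312 and 360.0 CPM W/O IL-10 and 482, 447 and 466 CPM W/ IL-10. All libraries W/ IL-10 were above all libraries W/O IL-10. The means were 365 ± 56.1 and 465 ± 17.8 CPM, a log2 fold change of 0.35 (SE 0.11, 95% interval 0.09 to 0.60) with a raw p of 0.0132 and an adjusted p of 0.186 in the edgeR fit. Cd3g has the lowest GC content of the 10 genes, 41.9%, and the 2870 tested genes between 40% and 45% GC had a median log2 fold change of 0.12. With a correction for GC content and length, the log2 fold change of Cd3g was 0.17. In W/O IL-10 replicate 1 these 2870 genes lay 0.2 below the mean of the 6 libraries on the log2 scale, while Cd3g was at its highest of that group. Whether base composition has a part in the difference of Cd3g was not tested.

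The 3 clustered chains shared an order of libraries W/O IL-10, one that Cd247, described below, also had. W/O IL-10, replicate 1 was the highest and replicate 2 the lowest for all 3 genes, with replicate 1 at 126% of the group mean for Cd3d and at 116% for both Cd3e and Cd3g. W/ IL-10, replicate 1 was again the highest for each of them. Replicate 2 was the lowest W/ IL-10 for Cd3e and Cd3g, and replicate 3 for Cd3d. Without replicate 1 W/O IL-10, the library furthest apart by GC content, Cd3d passed the edgeR test at a log2 fold change of 0.43 (adjusted p = 0.0332). In the same fit Cd3g passed at 0.46 (adjusted p = 0.0136), while Cd3e, at 0.37, did not (adjusted p = 0.0838). With the correction for GC content and length and the replicate block together, Cd3d (0.29, adjusted p = 0.0238) and Cd3e (0.26, adjusted p = 0.0262) passed and Cd3g (0.20, adjusted p = 0.419) did not. None of the 3 reached the fold change of 1.5 in any of these fits. Among the 9 tested neighbours within 100 kb of this cluster, 1 passed the test: Jaml, an adhesion molecule of leukocytes, with a log2 fold change of 1.28 (SE 0.14, edgeR adjusted p = 0.00383). The other 8 ranged from -0.07 to 0.47.

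Cd247, the zeta chain, stands alone on chromosome 1 (chr1:165788681-165877277, plus strand). It had 108, 97.4 and 105 CPM W/O IL-10 and 109, 122 and 113 CPM W/ IL-10. The groups did not overlap, but their replicates 1 lay next to each other. The means were 103 ± 5.39 and 115 ± 6.63 CPM, a log2 fold change of 0.15 (SE 0.08, 95% interval -0.02 to 0.32, edgeR adjusted p = 0.404). W/O IL-10, replicate 1 was the highest and replicate 2 the lowest, the order of the clustered chains, but replicate 1 was at only 104% of the group mean. W/ IL-10, replicate 1 of Cd247 was the lowest, at 95.2% of the group mean, whereas it was the highest for the clustered chains. For Cd3g that highest library W/ IL-10 was itself at 104% of its group mean. Of its annotated exon bases, 56.4% lie opposite Pou2f1, a gene for an octamer-binding factor on the other strand, and the sources do not say whether counting used strand, so reads of the 2 genes may not be fully separated. Pou2f1 itself had a log2 fold change of 0.05 (SE 0.14, edgeR adjusted p = 0.904).

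Of the coreceptor genes, both CD8 genes rose and Cd4 did not pass the test. Cd8a encodes the alpha chain of CD8, which pairs with itself or with the beta chain, and Cd8b1 encodes the beta chain, which needs the alpha chain to reach the surface. Both lie on the plus strand of chromosome 6, Cd8b1 at chr6:71322788-71337494 and Cd8a 35932 bases further at chr6:71373427-71379173. Cd4 lies on the same chromosome, on the minus strand at chr6:124864692-124888221. The promoter window of Cd8a (chr6:71373177-71373476) is printed because Cd8a was one of the pair that rose, and Cd8b1 and Cd4 had no window in the table used here. It held 3 E-box matches and no match to the RUNX, GATA or STAT letters in this window.
Cd8a: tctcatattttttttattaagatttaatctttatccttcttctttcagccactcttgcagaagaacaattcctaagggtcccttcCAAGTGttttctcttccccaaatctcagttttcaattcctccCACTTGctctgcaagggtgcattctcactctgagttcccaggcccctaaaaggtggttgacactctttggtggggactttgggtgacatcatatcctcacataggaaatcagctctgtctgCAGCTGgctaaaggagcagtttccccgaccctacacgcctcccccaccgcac

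Cd8a had 106, 95.8 and 119 CPM W/O IL-10 and 169, 139 and 166 CPM W/ IL-10. Every library W/ IL-10 was above every library W/O IL-10, the nearest pair being replicate 3 without and replicate 2 with IL-10. The means were 107 ± 11.7 and 158 ± 16.6 CPM, a fold change of 1.48 (log2 fold change 0.56, SE 0.11, 95% interval 0.32 to 0.80, edgeR adjusted p = 0.0369). Cd8a therefore rose without reaching the fold change of 1.5. The adjusted p-value did not pass without replicate 2 W/O IL-10 (0.141), replicate 1 W/ IL-10 (0.149) or replicate 3 W/ IL-10 (0.191), with log2 fold changes of 0.48 to 0.52 in those fits.

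Cd8b1 had 37.3, 32.6 and 44.5 CPM W/O IL-10 and 57.0, 58.6 and 66.6 CPM W/ IL-10. Again no library W/O IL-10 reached the lowest library W/ IL-10, and replicate 3 was the highest of both groups. The means were 38.1 ± 6.03 and 60.8 ± 5.15 CPM, a fold change of 1.59 (log2 fold change 0.67, SE 0.12, 95% interval 0.40 to 0.95, edgeR adjusted p = 0.0306). The interval includes folds below 1.5. The call was lost without replicate 2 W/O IL-10 (adjusted p = 0.109), and without replicate 1, 2 or 3 W/ IL-10 (adjusted p = 0.101, 0.0925 and 0.178). Of the 50-base stretches of Cd8b1, 6.0% also occur in transcripts of other genes.

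Cd4 had 38, 36 and 26 counts W/O IL-10 and 23, 27 and 8 counts W/ IL-10. The corresponding levels were 1.55, 1.49 and 1.12 CPM and 1.12, 1.20 and 0.351 CPM, that is 2.68 to 12.6 times the floor of 3 counts. The groups overlapped, and replicate 3 W/ IL-10 was the lowest of the 6. The means were 1.39 ± 0.234 and 0.889 ± 0.468 CPM, a log2 fold change of -0.65 (SE 0.44, 95% interval -1.65 to 0.35, edgeR adjusted p = 0.545). A fall of 1.5 times lay inside the interval and a rise of 1.5 times outside it, but the interval rests on 8 to 38 counts a library. What change could be detected at these counts was not tested. Without replicate 3 W/ IL-10 the log2 fold change was -0.26, the value nearest to 0 among the fits that left out 1 library, which reached -0.94.

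Ratios within a library do not depend on how libraries are scaled. The log2 ratio of Cd8b1 to Cd8a was -1.5, -1.55 and -1.42 W/O IL-10 and -1.56, -1.24 and -1.31 W/ IL-10. Replicate 1 W/ IL-10 was the lowest of all 6 and the groups overlapped. The means of -1.49 ± 0.07 and -1.37 ± 0.17 differed by 0.12 (two-sided exact permutation test, p = 0.4, and 0.4 after adjustment over the 2 ratios), a test that with 3 libraries a group reaches 0.1 at the lowest. The log2 ratio of Cd4 to Cd8a was -6.01, -5.93 and -6.63 W/O IL-10 and -7.13, -6.75 and -8.57 W/ IL-10. It was lower in every library W/ IL-10, with means of -6.19 ± 0.38 and -7.48 ± 0.96, a difference of -1.30 (two-sided exact permutation test, p = 0.1, the smallest this design can give, 0.2 after Benjamini-Hochberg adjustment over the 2 ratios). Without replicate 3 W/ IL-10 this difference was -0.75. In cells that by the methods came from CD4+ T cells, the counts of Cd4 were thus 0.00211 to 0.0155 times those of Cd8a, although the annotated exons of Cd4 are the longer (4032 against 3637 bases).

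**Figure D2:**
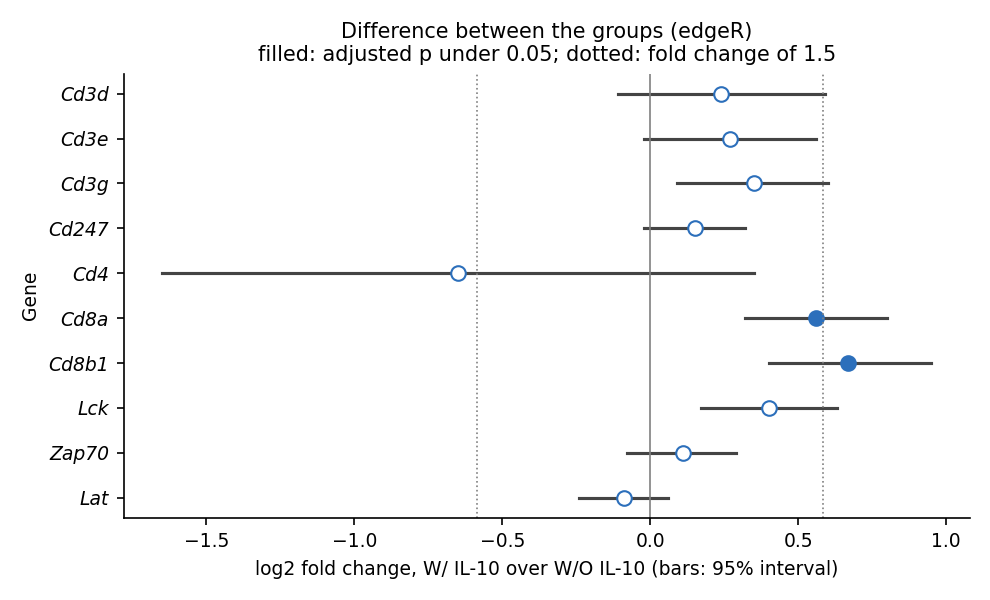
Log2 fold change, W/ IL-10 over W/O IL-10, of each gene in the edgeR fit, with its 95% interval as a bar; filled points have an adjusted p under 0.05 and dotted lines mark a fold change of 1.5. Cd8a (0.56) and Cd8b1 (0.67) are filled, and the interval of Cd4 (-1.65 to 0.35) is the widest of the 10.

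The neighbourhoods of the coreceptor genes were read in the same fit. Within 100 kb of Cd8b1 and Cd8a, none of the 6 tested neighbours passed (smallest adjusted p = 0.305, edgeR), among them Gm44175, a noncoding RNA between the CD8 genes, with a log2 fold change of 1.03 (SE 0.43) on means of 1.97 ± 0.367 and 4.04 ± 2.52 CPM. Within 100 kb of Cd4, 1 of 12 passed. It was Lag3, an inhibitory receptor that resembles CD4 and lies 16139 bases away, with 186, 183 and 194 CPM W/O IL-10 and 377, 406 and 438 CPM W/ IL-10. The groups of Lag3 were far apart, with a log2 fold change of 1.12 (SE 0.08, edgeR adjusted p = 0.000544) and an adjusted p of at most 0.00724 in the fits that left out 1 library.

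Lck, the kinase that begins the signal, had 257, 256 and 291 CPM W/O IL-10 and 310, 369 and 383 CPM W/ IL-10. The groups did not overlap, and replicate 1 W/ IL-10 lay closest to the W/O IL-10 libraries. The means were 268 ± 20.2 and 354 ± 38.9 CPM, a log2 fold change of 0.40 (SE 0.10, 95% interval 0.17 to 0.63) with a raw p of 0.0034 and an adjusted p of 0.0921 in the edgeR fit. Lck passed an adjusted p under 0.05 in 4 of 15 other fits, among them DESeq2 (0.018) and the correction for GC content and length (0.0171), and in none of them at a fold change of 1.5.

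Zap70, the kinase recruited next, had 317, 311 and 332 CPM W/O IL-10 and 316, 359 and 359 CPM W/ IL-10. Replicate 1 W/ IL-10 lay inside the range of the other group. The means were 320.3 ± 10.6 and 345 ± 24.9 CPM, a log2 fold change of 0.11 (SE 0.08, 95% interval -0.08 to 0.29, edgeR adjusted p = 0.592), and the upper end of the interval is below a fold change of 1.5. Zap70 did not pass in any of the 15 other fits.

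Lat, the membrane scaffold, had 159, 159 and 161 CPM W/O IL-10 and 145, 151 and 152 CPM W/ IL-10. All libraries W/ IL-10 were below all libraries W/O IL-10, by a small margin. The means were 159 ± 1.11 and 149 ± 3.88 CPM, a log2 fold change of -0.09 (SE 0.07, 95% interval -0.24 to 0.06, edgeR adjusted p = 0.56). Lat had the narrowest spread of the 10 genes W/O IL-10, with a coefficient of variation of 0.695%, against 22.9% for Cd3d. With the correction for GC content and length its log2 fold change was 0.02. The intervals of Zap70 and Lat exclude a change of 1.5 times in either direction, that of Lck includes it upwards, and a p that misses the threshold does not show that levels were equal.

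**Figure D3:**
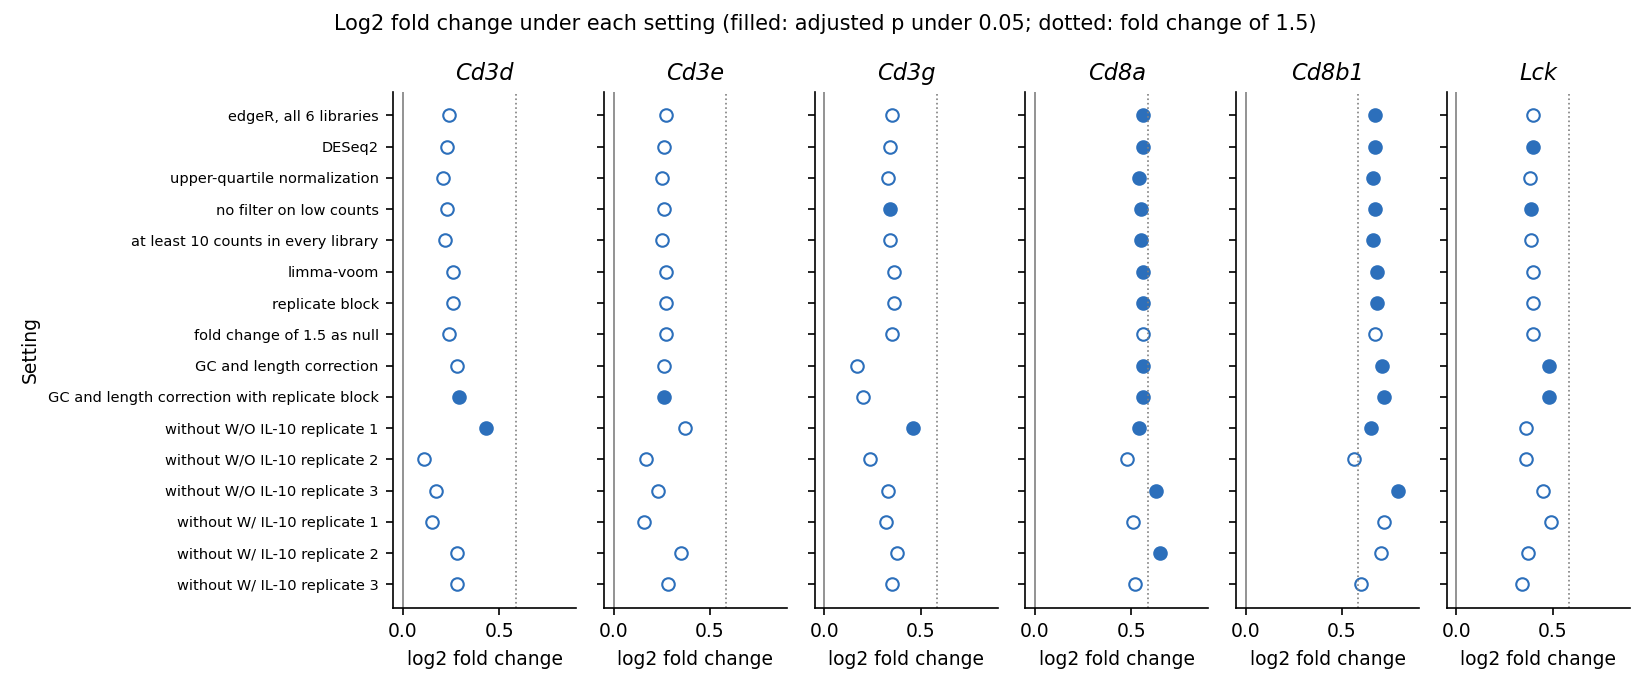
Log2 fold change of 6 genes (x axis) under each processing setting (rows), with filled points where the adjusted p was under 0.05 and a dotted line at a fold change of 1.5. Cd8b1 stays between 0.56 and 0.79 and Cd8a between 0.48 and 0.65, and the CD3 chains are at their highest without replicate 1 W/O IL-10.

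Levels were compared between genes per kb of annotated exon. On that scale Cd3d was the highest, at 197 ± 34.7 CPM per kb (SD, n = 6, range 148 to 239), above 98.7% of tested genes. Cd3g (127, range 95.4 to 148), Zap70 (111, range 104 to 120) and Lck (106, range 87.4 to 131) followed and overlapped in range with one another, while the lowest library of Cd3d lay just above the highest of Cd3g, and the lowest of Lck just above the highest of Cd3e. Below them came Cd3e (67.6, range 53.6 to 84.6), Lat (55.8, range 52.3 to 58.0), Cd8a (36.4, range 26.3 to 46.4), Cd8b1 (33.3, range 22.0 to 44.9) and Cd247 (20.5, range 18.3 to 22.9), with overlapping ranges for Cd3e and Lat, for Cd8a and Cd8b1 and for Cd8b1 and Cd247.

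Cd4, at 0.282 ± 0.106 CPM per kb (range 0.0869 to 0.385), was the lowest by a wide margin, above 8.4% of tested genes. Cd8a and Cd8b1, in cells defined by the lack of both coreceptors at the surface, were above 90.5% and 89.5%. The order depends on the length used. Per kb of the principal coding transcript, Cd3g led (406) before Cd3d (221) and Cd3e (189), and Cd247 (66.9) moved above Cd8a (42.3) and Cd8b1 (33.3), while Cd4 was still the lowest (0.366).

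**Figure D4:**
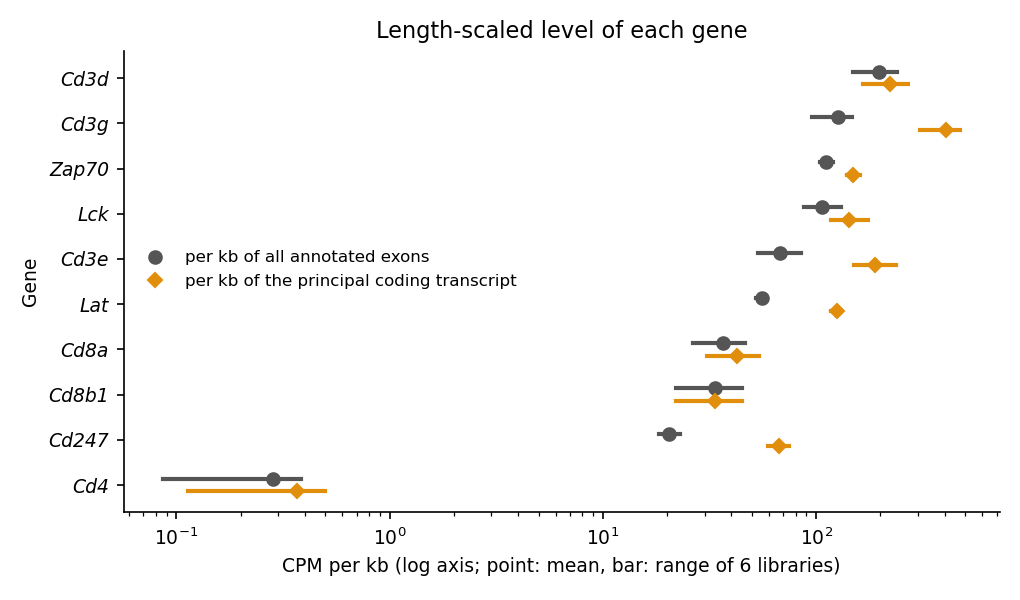
Level of each gene in CPM per kb (log axis), as the mean (point) and range (bar) of 6 libraries, per kb of all annotated exons (grey) and of the principal coding transcript (orange). Cd4 stands apart at 0.282 and 0.366 CPM per kb, and the CD3 chains change order with the length used.

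Likeness to the coreceptor genes was measured as the root mean square difference of log2 CPM over the 6 libraries, each gene centred on its own mean, which is a description with the group difference included. Nearest to Cd8a were Il18rap (0.045), an IL-18 receptor chain, Igf2r (0.054), the receptor for insulin-like growth factor 2 and mannose 6-phosphate, and Gm17193 (0.057). Nearest to Cd8b1 were Atp6v0d2 (0.082), a subunit of the vacuolar proton pump, Fgr (0.086), a Src family kinase, and Clspn (0.088), a replication checkpoint protein. The CD8 genes differed from each other by 0.121, at rank 51 from Cd8a and rank 16 from Cd8b1 among all tested genes. Of the other genes described, Cd3g was the next nearest to Cd8a (rank 253, before Lck at 327), and Lck the next nearest to Cd8b1 (rank 103, before Cd3g at 402). Nearest to Cd4 were 2810405F17Rik (0.114), Rapgef3 (0.176), an exchange factor activated by cyclic AMP, and Gm33370 (0.199), all genes of low counts like Cd4 itself.

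The rest of the proximal pathway was read from 3 lists of other genes. The first held 23 other signaling genes, the kinases, adaptors and costimulators around LCK, ZAP-70 and LAT. None of the 23 passed the test in edgeR with all 6 libraries, and none was called. Without replicate 1 W/O IL-10, 4 of the 23 passed (Rasgrp1, Sh2d2a, Skap1 and Themis) and none was called. In that fit 525 of all 14646 tested genes passed. With the correction for GC content and length 5 passed, against 580 of all 14916 tested genes. With the replicate block added to it 8 passed, against 999 of 14916. At an unadjusted p under 0.05 there were 6 higher and 4 lower, against 14.7% of all tested genes in either direction. Their median log2 fold change was 0.04, with 16 higher and 7 lower, and in both DESeq2 and the fit with no filter 1 of them (Themis, a regulator of thymocyte selection) was called. Among the 3 smallest in raw p were Skap1, an adaptor for adhesion (96.3 ± 11.1 and 125 ± 6.25 CPM, log2 fold change 0.38, adjusted p = 0.0898), and Tec, a kinase (73.0 ± 0.856 and 60.8 ± 1.85 CPM, -0.26, adjusted p = 0.091).

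The second list held 23 brakes, the phosphatases, ubiquitin ligases and inhibitory adaptors that dampen the signal. A single gene, Cd5, an inhibitory coreceptor whose surface level follows receptor signal strength, fell, that is 1 of 23 against 0.979% of tested genes lower and 2.19% in either direction. It had 59.4, 56.9 and 70.9 CPM W/O IL-10 and 44.3, 43.3 and 47.1 CPM W/ IL-10, without overlap, a log2 fold change of -0.47 (SE 0.10, edgeR adjusted p = 0.0467). The adjusted p-value of Cd5 was 0.0132 without replicate 1 W/O IL-10, the library furthest apart by GC content. It lay between 0.0935 and 0.181 when any other library was left out. It was 0.0539 in limma-voom and 0.0625 in edgeR with the correction for GC content and length. With that correction 2 of the 23 brakes passed, Ptpn6 and Ubash3a, against 580 of all 14916 tested genes. With the replicate block added to it 7 passed, against 999 of 14916. The median of the list was 0.06, with 12 higher and 11 lower. Next in raw p were Ptpn6, the phosphatase SHP-1 (124 ± 5.62 and 152 ± 10.1 CPM, log2 fold change 0.30, adjusted p = 0.104), and Ubash3a, a suppressor of receptor signaling (22.4 ± 1.93 and 30.8 ± 4.46 CPM, 0.46, adjusted p = 0.116).

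The third list held 17 transcription factors of the T lineage and of coreceptor choice. None passed the test in edgeR with TMM scaling, and 3 were higher and 7 lower at an unadjusted p under 0.05. The share of all tested genes at that p was 14.7%. Their median log2 fold change was -0.12, with 7 higher and 10 lower. Smallest in raw p were Myb, a factor of progenitors and activated T cells (251 ± 41.1 and 175 ± 5.82 CPM, log2 fold change -0.52, adjusted p = 0.062), Runx1, which represses Cd4 in thymocytes (88.2 ± 4.58 and 74.1 ± 3.06 CPM, -0.25, adjusted p = 0.139), and Tcf7, the factor TCF-1 (164 ± 7.51 and 141 ± 3.98 CPM, -0.22, adjusted p = 0.188). Without replicate 1 W/O IL-10, Myb was called, beside 254 of all 14646 tested genes. With DESeq2, upper-quartile scaling, no filter or the correction for GC content and length Myb passed below the fold change of 1.5. In these fits 696 of 14916, 331 of 14916, 1239 of 29393 and 580 of 14916 tested genes passed. With the replicate block added to the correction 2 of the 17 passed, Myb and Satb1, against 999 of 14916, and neither was called.

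**Figure D5:**
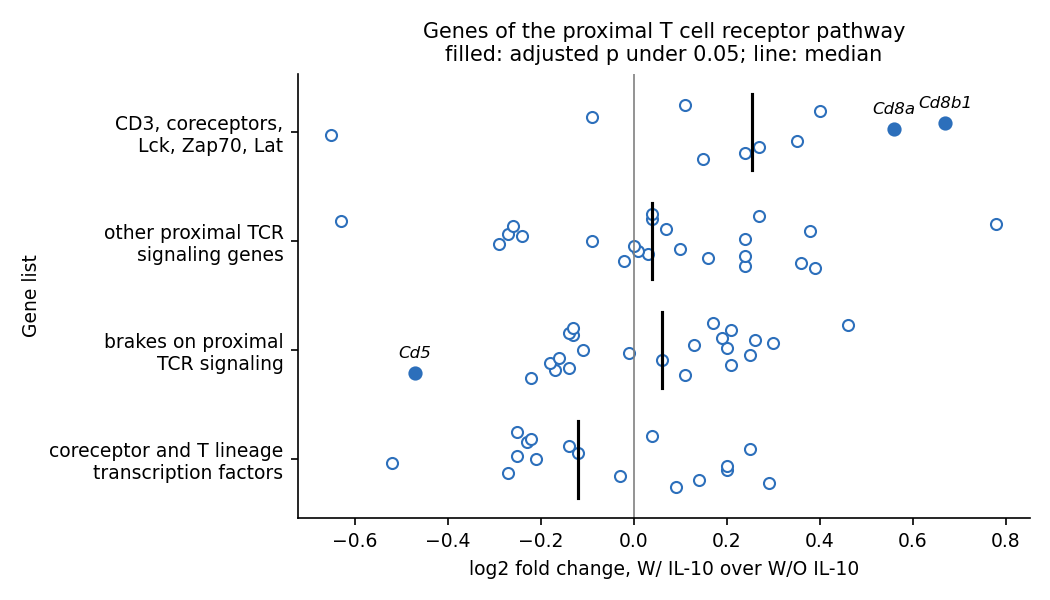
Log2 fold change, W/ IL-10 over W/O IL-10, of every gene in the 10 genes described and the 3 lists of other pathway genes, with filled points where the adjusted p was under 0.05 and a black line at the median of each list. Cd8a, Cd8b1 and Cd5 are filled, and the medians are 0.25, 0.04, 0.06 and -0.12.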

How the data were processed

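RNA of mouse cDNT was sequenced in 6 libraries, 3 for each group. The authors deposited whole-number counts per gene, not normalized. The submitters' processing notes name HISAT2, HTSeq and GRCm38, whereas the methods name TopHat, Cufflinks and UCSC annotation; versions and the use of strand are not given in the sources used here. The labels name a TruSeq kit and the methods NEBNext. Symbols and coordinates came from GENCODE (GRCm38), which held 29332 of 29393 identifiers.

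From these counts, edgeR 4.0.16 (R 4.3.3) gave TMM factors of 0.953 to 1.03 and the quasi-likelihood test on the 14916 genes that reached 10 counts in 3 or more libraries. P-values were adjusted by Benjamini-Hochberg over all tested genes. CPM used TMM-scaled library sizes, intervals the moderated degrees of freedom, and ratios log2 CPM with a prior count of 2. Data were also simulated with the real means and library sizes. Of genes changed 1.5 times (14634 genes tested), 22.5% passed edgeR's adjusted p under 0.05 at any fold change. Of genes changed 2 times (14661 genes tested), 70.5% passed. Unchanged genes made up 8.2% and 5.4% of those that passed.

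Alternatives were DESeq2 1.42.0, upper-quartile scaling, no filter, a filter on every library, limma-voom (limma 3.58.1), the replicate number as a block, glmTreat with a fold of 1.5 as null, splines (5 degrees of freedom) on GC content and length, a prior count of 0.5 for ratios, and each library left out. The 10 genes, the lists of pathway and marker genes and the tests were chosen with earlier results of these data known. Named beside the 10 genes were list genes that passed, the 3 smallest raw p of each pathway list (1 of them is not reported here), the 2 most abundant genes of each marker list and the 3 nearest profiles to each coreceptor gene. Csf1r, Cd68, Cd14, Adgre1, Lyz2, Klre1, Klra8, Klra4, Klri2 and the 8 dendritic cell markers given by counts were named after their values were seen. So were the neighbours within 100 kb, Pou2f1, Themis, Rasgrp1, Sh2d2a and Satb1.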

Additional observations from a re-analysis of the deposited data

How the results depend on the processing

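Of the 149 alternative values of the 10 genes' log2 fold changes, 140 kept both direction and call. Lat reversed to 0.02 under the GC and length correction, and to 0.02 with the replicate block added. Cd8b1 lost its call in 5 fits and Cd8a gained one in 2, at 0.63 without W/O IL-10 replicate 3 and 0.65 without W/ IL-10 replicate 2. The number of the 10 genes called, 1, was 0 with a fold change of 1.5 as null and 0 to 2 when 1 library was left out; it was 0 without W/O IL-10 replicate 2 or W/ IL-10 replicate 1 or 3, and 2 without W/O IL-10 replicate 3. The 217 genes called overall became 359 with DESeq2, 639 with no filter, 15 with a fold change of 1.5 as null, 373 with GC correction and replicate block, and 35 to 254 when 1 library was left out (35 without W/ IL-10 replicate 3, 57 without replicate 1, 98 without replicate 2, and 75 without W/O IL-10 replicate 2). Among the other proximal signaling genes 1 was called with DESeq2 and 1 with no filter; among the transcription factors 0 to 1 were called when 1 library was left out. The causes were not tested.

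After the group mean of each gene was removed, same-numbered libraries of the groups correlated at 0.0524, -0.0573 and 0.114 (replicates 1, 2 and 3). Pairs with different numbers correlated at -0.106 to 0.0409. Replicates 1 and replicates 3 correlated best with each other and replicates 2 did not, which does not decide whether the numbers mark pairs. With the replicate block, 196 genes and 1 of the 10 were called. Both ratios kept their direction and side of the threshold in all 9 alternatives, with a block p of 0.5 for Cd8b1 to Cd8a and 0.25 for Cd4 to Cd8a, in a design too small to pass. Depth limits Cd4, at 8 to 38 counts a library; it had no value under the filter on every library.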
